A study of Mus musculus with 119 samples.

Results

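Atf3, Batf, Batf3 and Jdp2 encode small basic leucine zipper (bZIP) proteins that pair with JUN proteins and with each other. Their values were taken by gene symbol, as the 4 matching genes of 18098 in the deposited table, in every RNA-seq library of the series. FOS and JUN proteins form the transcription factor AP-1 by joining through their leucine zippers, and most FOS-JUN pairs activate genes at AP-1 sites. ATF3 and JDP2, which also bind the related cAMP response element (CRE), lack the activation domains of FOS and are best known as repressors, ATF3 as a brake on cytokine genes in macrophages given LPS. BATF and BATF3 pair with JUN and bind beside the factors IRF4 and IRF8, and are known for their roles in T helper and B cells (BATF) and in a subset of dendritic cells (BATF3).

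The libraries came from bone marrow-derived macrophages (BMDMs) of C57BL/6(NIMR) mice, which were grown for 7 days in L-cell conditioned medium, kept overnight in low serum, and left unstimulated or given LPS, a ligand of TLR4, at 100 ng/ml. The study asked how the kinase TPL-2 and the ERK1/2 pathway that it activates shape the response to LPS. WT cells gave 6 libraries each without LPS and at 0.5 and 1 h, and 4 at 2 h, and Map3k8[D270A] cells, whose TPL-2 has no kinase activity, gave 6 at each of the 4 times. Elk1-/-Elk4-/- cells, which lack a pair of ternary complex factors that ERK1/2 phosphorylate, gave 4 libraries at each time. Nfkb1[SS/AA] cells, in which p105, the NF-κB protein that holds TPL-2, cannot be phosphorylated for its proteolysis, gave 6 libraries each without LPS and at 0.5 and 1 h. WT cells that received PD0325901 at 0.1 µM, an inhibitor of the ERK1/2 kinases MKK1/2, 10 min before LPS gave 6 libraries each at 0.5 and 1 h. Without LPS, PD0325901-treated cells gave 3 libraries each at 10, 40 and 70 min, and cells given the solvent DMSO for 10 min gave 3. WT cells that received RSKi47 at 2 µM, an inhibitor of the RSK kinases downstream of ERK1/2, gave 4 libraries without LPS, 3 at 0.5 h, and 4 each at 1 and 2 h. They had RSKi47 for 10 min before LPS or, without LPS, before harvest. Differences between RSKi47-treated cells with and without LPS therefore hold LPS and the added time in the inhibitor together. The 3 mutant strains carry their alleles in all cells of the mouse and not only in macrophages. By their labels the WT libraries belonged to the experiment on Map3k8[D270A] cells, and the Elk1-/-Elk4-/-, Nfkb1[SS/AA], PD0325901 and RSKi47 libraries to an experiment each. In comparisons between experiments, such as those of the latter with WT, genotype or inhibitor and experiment cannot be told apart, and no DMSO culture with LPS was analysed here. The methods call the libraries biological replicates, but the labels name no animals, and p values measure the spread between these libraries. The labels do not say either whether the 6 PD0325901 libraries at each LPS time are 6 cultures. Averaging them into 3 (replicates 1 and 4, 2 and 5, 3 and 6) changed no call of the 4 genes against WT or in their responses, and lowered the number of genes called against WT from 3524 to 1914 at 0.5 h and from 4268 to 2689 at 1 h.

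Each value is a deposited normalized level on a log2 scale. The sources used here do not give the transformation behind it, and for depth the methods give only a typical read yield, so that of each library is unknown. Differences are given on that scale, where 1 would be a doubling if the scale is plain log2 of the amount. Levels were not compared between genes. Because each library is RNA of many cells, fewer cells that express a gene and less of its RNA per cell cannot be told apart. A difference was called at an adjusted p below 0.05 in limma, with Benjamini-Hochberg adjustment over 11884 genes in the comparisons of WT, Map3k8[D270A] and Elk1-/-Elk4-/- cells and over 11971 in the others. All 4 genes passed the filter on low values in both.

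The libraries carried the labelled genotype where mRNA can show it. In Elk1-/-Elk4-/- cells Elk1 lay between 6.17 and 6.59 and Elk4 between 5.51 and 5.88, below all 103 other libraries, which began at 8.55 and 6.88. The point mutations of Map3k8 and Nfkb1 leave no such trace. All 8 macrophage markers examined were expressed in every group, with a summed log2 level between 18.35 and 19.23. The sum was below WT without overlap in Elk1-/-Elk4-/- libraries at each time (18.35 to 18.44 against 18.61 to 18.80 without LPS). So it was in Map3k8[D270A] libraries at 2 h (18.67 to 18.86 against 18.87 to 19.00). With RSKi47 it was above WT without overlap at 1 h (18.92 to 18.98 against 18.74 to 18.91). The 8 neutrophil markers summed to between 10.04 and 11.04 in Elk1-/-Elk4-/- libraries and to between 6.14 and 8.81 in all other libraries, with Ly6g and Elane near the floor of the scale throughout. Among the latter they were higher in the PD0325901 experiment than in WT at the same time without overlap, at between 7.54 and 8.25 with DMSO against 6.36 to 7.19, between 8.09 and 8.32 against 6.24 to 7.22 at 0.5 h of LPS, and between 8.25 and 8.81 against 6.40 to 7.74 at 1 h. With RSKi47 they lay between 7.08 and 8.59. They were above WT without overlap without LPS (7.50 to 7.82) and at 2 h (7.92 to 8.59 against 6.42 to 7.73), and overlapped WT at 0.5 and 1 h. The 4 fibroblast markers summed to between 5.04 and 9.41 with RSKi47 and to between 3.87 and 4.90 elsewhere, with Dcn at the floor. The 8 markers of conventional dendritic cells summed to between 12.11 and 12.51 with RSKi47 and to between 11.49 and 12.23 elsewhere, mostly through Cadm1, which lay at or above 11.47 in all libraries. Of the others Zbtb46 reached 5.33, Xcr1 5.01, Ccr7 4.45, Clec9a 2.90 and Flt3 2.11, and Itgae (at most 0.97) and Cd209a (at most 0.09) were near the floor. The 6 T and B cell markers, with Cd3e and Cd3g at the floor, summed to between 3.58 and 4.14 in Elk1-/-Elk4-/- libraries and to between 3.25 and 3.66 elsewhere. The part of these lists in the results for the mutant cells and for PD0325901-, DMSO- and RSKi47-treated cells was not tested. WT replicates 4 to 6 and Map3k8[D270A] replicates 1 to 3, called the first replicates here, stood apart from WT replicates 7 to 9 and Map3k8[D270A] replicates 4 to 6, the second replicates, and values within each are given beside the main results that rest on them. At 2 h the second replicates held a single WT library, which was assumed to vary like the other groups.

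The 4 genes lie in 2 neighbourhoods of the mouse genome (GRCm38.p6, RefSeq). Batf3 occupies chr1:191098414-191108943, and Atf3 follows on the other strand at chr1:191170296-191183333, with 1 protein-coding gene in the 61.4 kb between them. Fos (chr12:85473890-85477274), Jdp2 (chr12:85598656-85639878) and Batf (chr12:85686720-85709087) follow each other on chromosome 12, with 121.4 kb from Fos to Jdp2, 46.8 kb from Jdp2 to Batf and no protein-coding gene in either gap.

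The promoter sequences of Atf3, Jdp2 and Batf are shown because these 3 genes rose after LPS and hold short motifs of the ATF and CREB kind, some of them shared. The stretches are RefSeq sequence of GRCm38.p6 and end close to the start site of transcription, and capitals mark the motif matches. The Atf3 stretch (chr1:191183334-191183463, minus strand) ends 1 base before the start, the Jdp2 stretch (chr12:85599282-85599410, plus strand) ends 6 bases before the second of 3 annotated starts, and the Batf stretch (chr12:85686602-85686646, plus strand) ends at position -74 from the start.
Atf3: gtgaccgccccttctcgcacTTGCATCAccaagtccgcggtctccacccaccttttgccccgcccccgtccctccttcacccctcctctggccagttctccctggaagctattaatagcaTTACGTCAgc
Jdp2: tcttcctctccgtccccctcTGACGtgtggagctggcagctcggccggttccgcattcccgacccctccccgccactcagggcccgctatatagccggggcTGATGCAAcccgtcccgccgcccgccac
Batf: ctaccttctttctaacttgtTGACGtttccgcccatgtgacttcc
Windows from 250 bases before to 50 after each annotated start were searched on both strands for 6 motifs, which were chosen after the sequences had been read. Atf3 held a CRE-like element (TNACGTCA), which 2.93% of all 32851 such windows hold, as TTACGTCA from 10 bases before its start (chr1:191183336-191183343). In the GENCODE annotation the first exon of Atf3 begins 7 bases earlier, inside this match. The composite C/EBP-ATF element (TGATGCAA, in 0.895% of windows) was found in Atf3 on the other strand, as TTGCATCA (chr1:191183436-191183443), and in Jdp2 from 33 bases before the second start (chr12:85599383-85599390). The CRE half-site TGACG, which 20.8% of windows hold, was found in Batf (chr12:85686622-85686626) and Jdp2 (chr12:85599302-85599306), and in Atf3 on the other strand within its CRE-like element. The window of Batf3 and those of the other two starts of Jdp2 held none of these, and the AP-1 site TGANTCA (7.81% of windows), the CArG box (1.63%) and the NF-κB site (4.51%) were found in no window of the 4 genes.

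In WT BMDMs the 4 genes followed different courses after LPS. Atf3 rose within 0.5 h, Jdp2 rose from 1 h and Batf mainly at 2 h, and Batf3 was not called at any time. At 0.5 h 1 of the 4 was called, beside 11.6% of all genes tested, at 1 h 3 beside 46.8%, and at 2 h 3 beside 71.5%. The plot of levels by time shows every library.

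**Figure D1:**
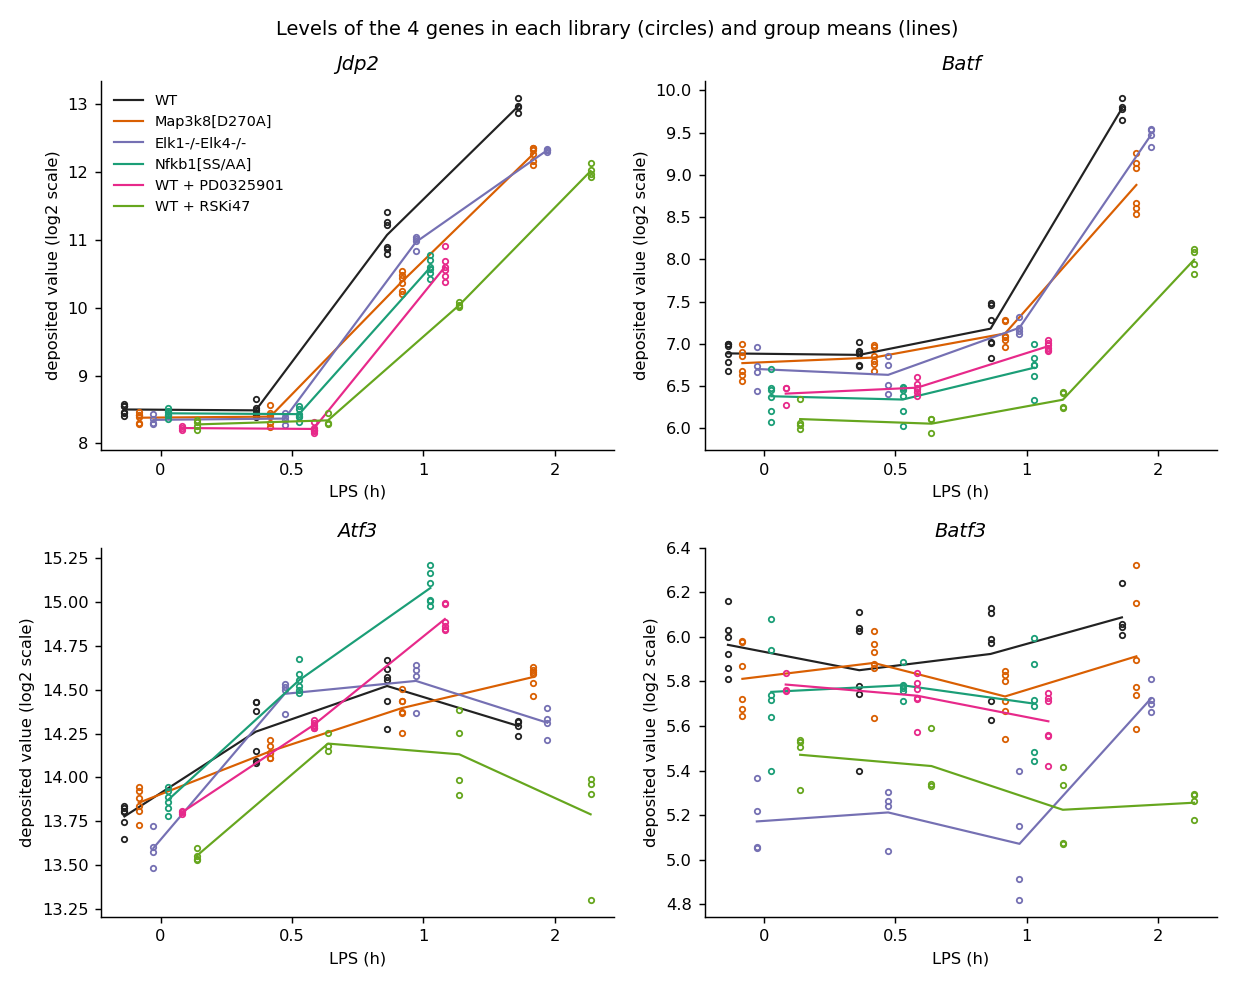
Levels of Jdp2, Batf, Atf3 and Batf3 (deposited values, log2 scale) against hours of LPS, with a circle for each library and a line through the means of each genotype or inhibitor. The PD0325901 and RSKi47 circles at 0 h are cells given the inhibitor for 10 min. Jdp2 in WT cells stood at 8.50 without LPS and 12.97 at 2 h on average, and Batf at 6.89 and 9.79, above the other groups at 2 h, whereas the Batf3 panel spans a narrow range.

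Jdp2, a repressor of AP-1 and CRE-driven genes, had a lowest, median and highest level of 8.40, 8.51 and 8.59 in the 6 unstimulated WT libraries and of 8.39, 8.47 and 8.66 at 0.5 h. At 1 h the 6 libraries stood at 10.79, 11.05 and 11.41. At 2 h the 4 libraries read 12.96, 12.96, 12.86 and 13.09. The libraries without LPS and at 0.5 h overlapped, and those at 1 h and then at 2 h each lay wholly above the rest. Against unstimulated cells Jdp2 differed by -0.01 at 0.5 h (adjusted p = 0.95) and rose by 2.57 at 1 h (SE 0.068, limma adjusted p = 4.19e-37) and 4.47 at 2 h (SE 0.076, adjusted p = 1.17e-45). Within the first and second replicates the rise at 1 h was 2.83 and 2.31, and at 2 h 4.46 and 4.55.

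Batf, the founding member of the BATF family, stood at 6.68, 6.93 and 7.00 (lowest, median and highest) without LPS and at 6.74, 6.89 and 7.03 at 0.5 h. At 1 h its 6 WT libraries read 7.47, 7.48, 7.28, 7.02, 7.02 and 6.83. At 2 h the 4 libraries read 9.78, 9.80, 9.91 and 9.65. At 1 h only the first replicates were clear of the unstimulated range by more than 0.1, and at 2 h all 4 libraries were far above every earlier one. The difference at 1 h was 0.29 (SE 0.10, adjusted p = 0.0154), 0.45 within the first and 0.14 within the second replicates, and it was no longer called without WT replicate 4 (0.26) or 5 (0.23). At 2 h Batf rose by 2.90 (SE 0.11, adjusted p = 1.91e-29), with 2.87 and 2.84 within the 2 groups of replicates.

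Atf3, a stress-induced gene, was high before LPS, at 13.65, 13.80 and 13.84 (lowest, median and highest of 6). At 0.5 h the 6 WT libraries stood at 14.08, 14.26 and 14.43, and at 1 h at 14.28, 14.56 and 14.67. The 4 libraries at 2 h read 14.24, 14.29, 14.32 and 14.32. All libraries with LPS lay above all without, but those of the 3 LPS times overlapped. Atf3 rose by 0.48 at 0.5 h (SE 0.056, adjusted p = 1.48e-09), 0.74 at 1 h (SE 0.056, adjusted p = 4.37e-17) and 0.52 at 2 h (SE 0.063, adjusted p = 2.03e-10). Within the first and second replicates the rise was 0.30 and 0.67 at 0.5 h, 0.80 and 0.68 at 1 h, and 0.47 and 0.58 at 2 h. From 1 to 2 h, where 65.3% of all genes were called, it fell by 0.23 (adjusted p = 0.00133), with -0.33 within the first replicates and -0.10 (not called) within the second. The size of its rise rested on the scaling of the libraries: after quantile normalization the differences were 0.45, 0.44 and 0.09, and the last was not called.

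Batf3 in WT cells lay between 5.40 and 6.24 in all 22 libraries, with medians of 5.96 without LPS, 5.90 at 0.5 h and 5.98 at 1 h. At 2 h the libraries read 6.04, 6.24, 6.06 and 6.01, and the groups overlapped throughout. Its differences from unstimulated cells were -0.11, -0.04 and 0.12 (adjusted p = 0.575, 0.788 and 0.342), the last with an SE of 0.12. After quantile normalization the difference at 2 h was 0.26 and called.

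At 0.5 h Atf3 was the one member called against cells without LPS in each mutant and inhibitor group, and it rose by 0.29 in Map3k8[D270A] cells (5.08% of all genes called), 0.88 in Elk1-/-Elk4-/- cells (4.96%), 0.68 in Nfkb1[SS/AA] cells (14.6%), 0.46 with PD0325901 (14.9%) and 0.64 with RSKi47 (5.10%). At 1 h Jdp2, Atf3 and Batf were called in Map3k8[D270A] (41.9% of genes), Elk1-/-Elk4-/- (33.3%) and Nfkb1[SS/AA] cells (44.4%) and with PD0325901 (43.6%), and Jdp2 and Atf3 with RSKi47 (29.0%), where Batf differed by 0.23 (adjusted p = 0.144). At 2 h all 3 were called in Map3k8[D270A] cells (69.5%) and with RSKi47 (62.2%), and all 4 members in Elk1-/-Elk4-/- cells (67.2%). The Atf3 difference at 2 h was 0.24 with RSKi47, where the libraries overlapped those without LPS, and it turned to -0.11 and lost its call after quantile normalization and was 0.39 without RSKi47 replicate 4. In Map3k8[D270A] cells it was 0.72 and fell to 0.34, still called, under that scaling, and in Elk1-/-Elk4-/- cells 0.71 and 0.31. At 1 h the same scaling took it from 0.54 to 0.33 in Map3k8[D270A] cells and from 0.58 to 0.38 with RSKi47, both still called.

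The FOS and JUN genes, with which these proteins share their sites, moved in both directions over the same times. Of the 7 genes, 6 were higher at 0.5 h, with a median difference of 1.55 against -0.004 over all genes, 7 at 1 h, and at 2 h 3 were higher and 2 lower. Fos rose by 3.15 at 0.5 h and stood 1.55 below its unstimulated level at 2 h (-1.55), and Jun rose by 1.55 at 0.5 h and was at -1.27 at 2 h. Junb stayed higher at all 3 times (2.59, 2.87 and 1.84), and Fosl2 climbed from 0.46 to 1.08 and 1.66. Batf2, the remaining BATF gene, was at -0.02 and -0.14 without a call and rose by 2.22 at 2 h.

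**Figure D2:**
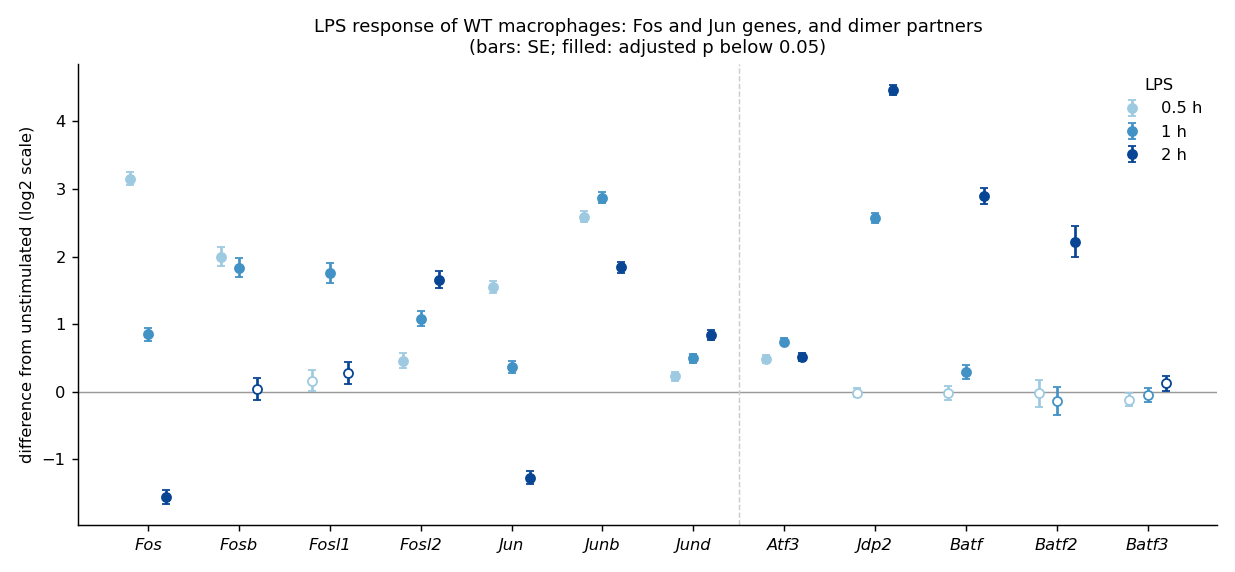
Difference of each Fos and Jun gene and of Atf3, Jdp2 and the Batf genes from unstimulated WT cells at 0.5, 1 and 2 h of LPS (log2 scale, with SE; filled symbols have an adjusted p below 0.05). Fos and Jun stood below 0 at 2 h (-1.55 and -1.27), when Jdp2 (4.47), Batf (2.90) and Batf2 (2.22) were at their highest differences of the 3 times.

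Among 17 other ATF, CREB, BATF and C/EBP genes of this protein class, 5 were higher at 0.5 h, 8 higher and 2 lower at 1 h, and 9 higher and 5 lower at 2 h, with medians of 0.04, 0.07 and 0.11. Of all genes tested 7.82%, 23.8% and 34.7% were higher and 3.81%, 23.0% and 36.8% lower at these times. Cebpb led at 0.5 and 1 h (1.15 and 1.72), and Cebpa was lowest at 1 and 2 h (-0.92 and -1.96). Of the IRF partners of BATF proteins, Irf4 rose by 2.08 at 1 h and 0.50 at 2 h, whereas Irf8 fell by 0.43 at 1 h and rose by 0.99 at 2 h. Of 8 genes reported as targets that ATF3 represses in macrophages, 3 were higher at 0.5 h, 7 at 1 h and 8 at 2 h, led by Cxcl1 (3.85 and 5.45) at the first 2 times and Il12b (7.88) at 2 h.

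The comparisons with WT at the same time called few of the 4 genes in Map3k8[D270A] cells before 2 h and more in the other groups, where more of all genes were called as well. In Map3k8[D270A] cells none of the 4 was called without LPS and at 0.5 h, where 1.44% and 1.37% of genes were called and none of the 4 had an unadjusted p below 0.05. At 1 h 1 was called beside 9.79% of genes, and at 2 h 3 beside 27.7%. In Elk1-/-Elk4-/- cells 2, 2, 1 and 3 of the 4 were called at the 4 times, beside 51.8%, 44.4%, 53.4% and 50.8%. In Nfkb1[SS/AA] cells 1, 2 and 4 were called beside 32.0%, 32.3% and 42.5%. With PD0325901 2 were called at 0.5 h beside 29.4% and 3 at 1 h beside 35.7%. With RSKi47 4, 2, 4 and 4 were called at the 4 times beside 53.0%, 48.2%, 52.8% and 52.1%. All of these comparisons share the WT libraries. The plot of differences from WT sets them side by side.

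**Figure D3:**
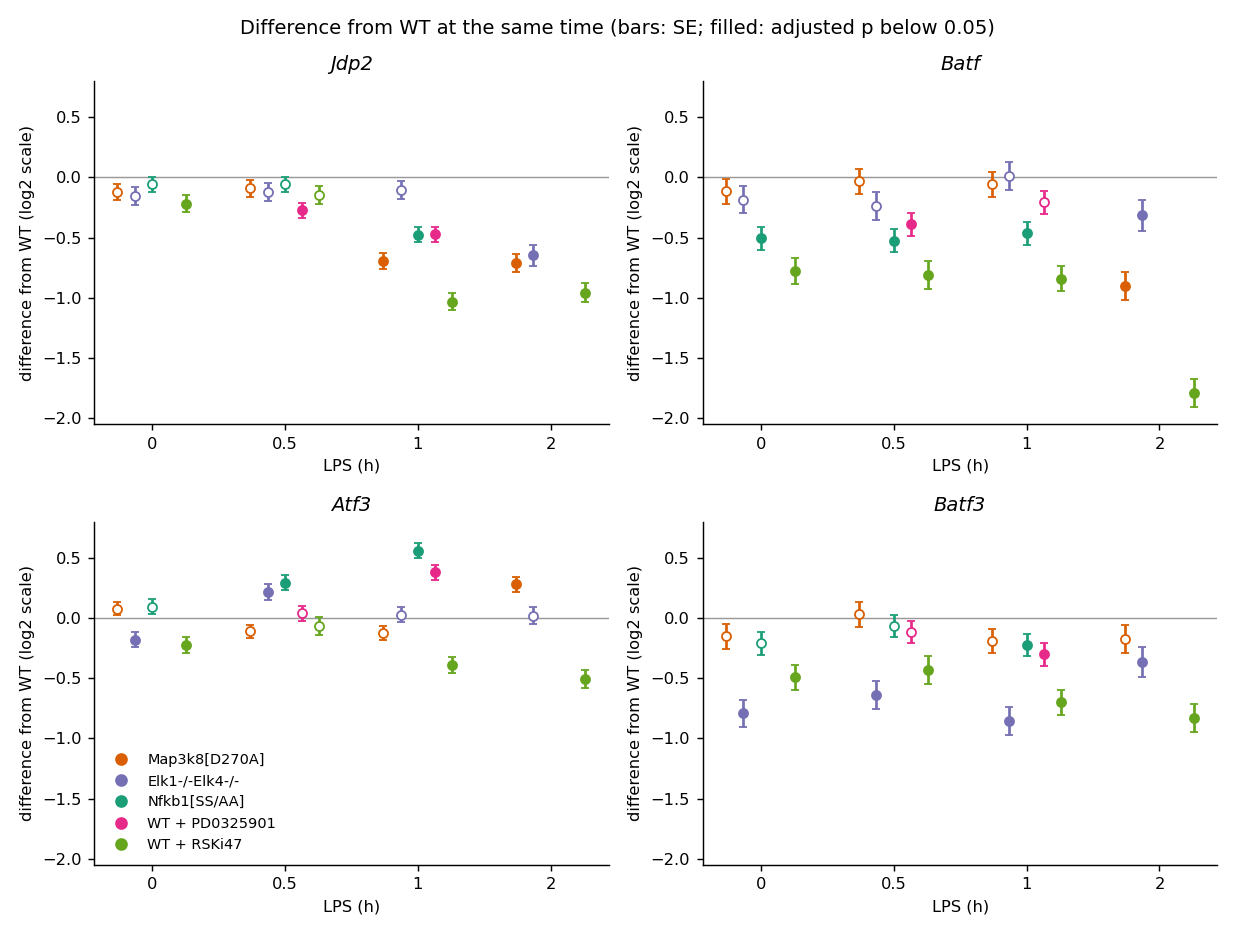
Difference of Jdp2, Batf, Atf3 and Batf3 from WT cells at the same hour of LPS (log2 scale, points with SE) for each mutant and inhibitor; filled points have an adjusted p below 0.05. Jdp2 and Batf lie at or below 0 apart from an open Batf point at 0.01, Atf3 lies on both sides of 0 (0.56 in Nfkb1[SS/AA] cells at 1 h and -0.50 with RSKi47 at 2 h), and the lowest Batf3 points are those of Elk1-/-Elk4-/- and RSKi47-treated cells.

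Jdp2 was lower than in WT at 1 h of LPS in 4 of the 5 mutant or inhibitor groups and at 2 h in all 3 groups that have that time. In Map3k8[D270A] cells its lowest, median and highest levels were 10.21, 10.40 and 10.54 at 1 h and 12.10, 12.29 and 12.35 at 2 h, wholly below WT at both times. The differences from WT were -0.69 (SE 0.068, adjusted p = 1.83e-11) at 1 h and -0.71 (SE 0.076, adjusted p = 8.12e-11) at 2 h. Without LPS and at 0.5 h they were -0.12 and -0.09 and were not called. Within the first and second replicates the difference was -0.94 and -0.44 at 1 h and -0.76 and -0.75 at 2 h.

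The response of Jdp2 to LPS, that is its difference from unstimulated cells of the same genotype or inhibitor, was also smaller in Map3k8[D270A] cells. It was 2.00 at 1 h and 3.88 at 2 h, which is 0.57 and 0.59 less than in WT. As differences of responses these were -0.57 (SE 0.096, limma adjusted p = 5.3e-05) and -0.59 (SE 0.10, adjusted p = 1.95e-05), where 2.02% and 15.5% of all genes were called. At 1 h the difference of responses was -0.85 within the first replicates and -0.29, not called, within the second, and at 2 h it was -0.66 and -0.60.

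**Figure D4:**
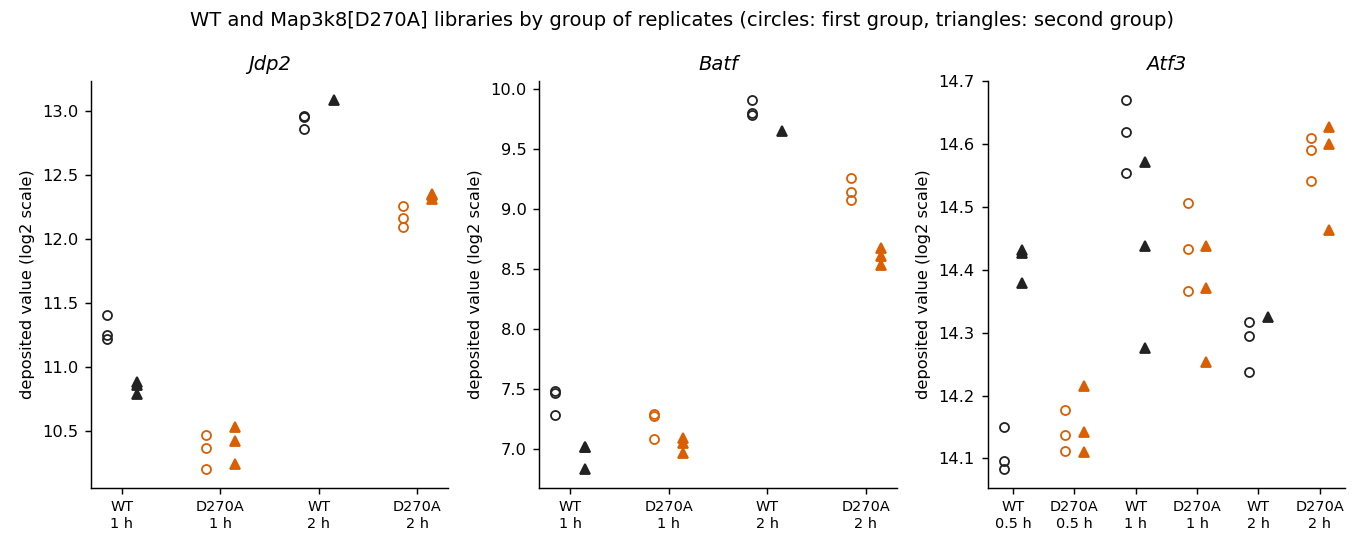
Levels of Jdp2, Batf and Atf3 (log2 scale) in WT and Map3k8[D270A] (D270A) libraries by hour of LPS, with open circles for the first replicates and filled triangles for the second. At 1 h the first WT replicates of Jdp2 (11.22 to 11.41) lay above the second (10.79 to 10.89), and at 2 h the Batf triangles of Map3k8[D270A] cells (8.54 to 8.67) lay below its circles (9.08 to 9.26).

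In Elk1-/-Elk4-/- cells Jdp2 read 10.98, 11.04, 10.83 and 11.01 at 1 h, within the range of WT, and 12.33, 12.32, 12.29 and 12.34 at 2 h, below all WT libraries. It differed from WT by -0.10 at 1 h (adjusted p = 0.249), where it was -0.33 and called against the first WT replicates and 0.12 against the second, and by -0.65 at 2 h (SE 0.083, adjusted p = 5.58e-09). At 2 h the response was 0.50 smaller than in WT (-0.50, SE 0.11, adjusted p = 0.00107), in a comparison that called 16.9% of genes. Set against Map3k8[D270A] cells directly, Jdp2 was higher in Elk1-/-Elk4-/- cells by 0.59 at 1 h without overlap (adjusted p = 7.17e-09, 51.6% of genes called) and differed by 0.06 at 2 h (SE 0.076, adjusted p = 0.514, 49.6% called). The summed neutrophil markers were higher in these Elk1-/-Elk4-/- libraries, as given above, at 1 h as well as at 2 h.

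In Nfkb1[SS/AA] cells Jdp2 stood at 10.42, 10.58 and 10.77 at 1 h, below all WT libraries, and differed from WT by -0.48 (SE 0.062, adjusted p = 4.42e-10; -0.70 and -0.25 against the first and second WT replicates), after -0.06 and -0.06 at the earlier times. The response at 1 h was 2.15, a difference of responses of -0.42 (SE 0.088, adjusted p = 0.000354, 6.07% of genes called). Against the first WT replicates alone it was -0.68, and against the second -0.16 and not called. With PD0325901 Jdp2 stood at 10.38, 10.58 and 10.90 at 1 h, and the highest of these libraries overlapped the lowest of WT. It was lower than in WT by 0.27 at 0.5 h (-0.27, adjusted p = 0.00036) and by 0.47 at 1 h (-0.47, SE 0.062, adjusted p = 1.22e-09), or -0.69 and -0.25 against the first and second WT replicates.

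In the PD0325901 experiment Jdp2 was below the WT libraries before LPS as well. The DMSO libraries read 8.20, 8.17 and 8.12, below every unstimulated WT library, a difference of -0.34 (SE 0.076, adjusted p = 0.000552) in a comparison of solvent and experiment together that called 23.6% of genes. After 10 min of PD0325901 the libraries read 8.26, 8.20 and 8.22, which differed from DMSO by 0.06 (SE 0.088, adjusted p = 1). Counted from PD0325901 alone at 70 min, where the libraries read 8.34, 8.14 and 8.24, Jdp2 rose by 2.36 at 1 h of LPS, and this response differed from that of WT by -0.21 (SE 0.099, limma adjusted p = 0.311, 3.58% of genes called). Against the first WT replicates alone the difference of responses was larger in size and called.

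Jdp2 had its lowest mean levels at 1 and 2 h of LPS in RSKi47-treated cells. The libraries read 10.03, 10.01, 10.08 and 10.03 at 1 h and 12.12, 11.92, 12.02 and 11.97 at 2 h, below all WT libraries. The differences from WT were -0.22 without LPS (adjusted p = 0.00547), -0.15 at 0.5 h (adjusted p = 0.103), -1.03 at 1 h (SE 0.070, adjusted p = 6.96e-24) and -0.96 at 2 h (SE 0.076, adjusted p = 9.19e-20). Against the first and second WT replicates the difference at 1 h was -1.26 and -0.81. The response was smaller than in WT by 0.81 at 1 h (-0.81, SE 0.099, adjusted p = 9.52e-10, 5.54% of genes called) and by 0.74 at 2 h (-0.74, SE 0.10, adjusted p = 1.58e-08, 21.0% called). It is counted from cells with 10 min of RSKi47, so LPS and the longer time in the inhibitor cannot be told apart. At 1 h Jdp2 was also 0.56 lower with RSKi47 than with PD0325901 (-0.56, SE 0.070, adjusted p = 3.85e-11, 53.9% called), without overlap. Fibroblast markers were higher in the RSKi47 libraries, and neutrophil markers were above WT without LPS and at 2 h, as given above.

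Batf in Map3k8[D270A] cells was called against WT at 2 h and at none of the earlier times. The 6 Map3k8[D270A] libraries stood at 8.54, 8.88 and 9.26 (lowest, median and highest) at 2 h, below all 4 WT libraries. At the 3 earlier times the libraries overlapped those of WT, with differences between -0.12 and -0.03 that were not called. The difference at 2 h was -0.91 (SE 0.11, adjusted p = 9.58e-09), with -0.67 within the first replicates and -1.05 within the second. The response of 2.11 was smaller than that of WT by 0.79 (-0.79, SE 0.15, adjusted p = 0.000136), with -0.56 within the first replicates and -0.93 within the second, where the single WT library borrows its spread.

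In Elk1-/-Elk4-/- cells Batf at 2 h read 9.47, 9.53, 9.54 and 9.34, between WT and Map3k8[D270A] cells without overlap with either. It was 0.32 below WT (-0.32, SE 0.13, adjusted p = 0.0318) and 0.59 above Map3k8[D270A] cells (SE 0.11, adjusted p = 2.8e-05). The difference from WT lost its call when WT replicate 4 (-0.32), 5 (-0.31) or 6 (-0.27) or Elk1-/-Elk4-/- replicate 1 (-0.32) or 4 (-0.27) was left out, and against the second WT replicates (-0.18). The response of 2.77 differed from that of WT by -0.13 (adjusted p = 0.664).

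In Nfkb1[SS/AA] cells Batf was lower than in WT before LPS and to a like extent after it. The libraries stood at 6.07, 6.42 and 6.70 without LPS, 6.03, 6.42 and 6.49 at 0.5 h, and 6.34, 6.75 and 7.00 at 1 h. They were below all WT libraries at 0.5 h and overlapped WT at the other times. The differences were -0.51 (adjusted p = 1.17e-05), -0.53 (adjusted p = 4.85e-06) and -0.46 (adjusted p = 3.62e-05). At 1 h the difference was -0.69 against the first and -0.24, not called, against the second WT replicates, and the responses differed from WT by -0.02 and 0.04 without a call.

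Both inhibitor experiments also began below the WT libraries. DMSO-treated cells read 6.51, 6.35 and 6.41, below all unstimulated WT libraries, a difference of -0.47 (SE 0.12, adjusted p = 0.00182), and PD0325901 at 10 min read 6.48, 6.28 and 6.48. With LPS the PD0325901 libraries stood at 6.39, 6.47 and 6.61 at 0.5 h and 6.91, 6.97 and 7.05 at 1 h, with differences from WT of -0.39 (adjusted p = 0.000959) and -0.21 (adjusted p = 0.0798). Against the first WT replicates the second was -0.43 and called, against the second 0.02 (adjusted p = 0.905), and without WT replicate 9 -0.28 and called. From PD0325901 alone at 70 min, Batf rose by 0.69 at 1 h (limma adjusted p = 3e-07), 0.40 more than in WT, a difference of responses that was not called (SE 0.15, limma adjusted p = 0.146). It was called when replicate number was a block (0.39), with only the compared groups in the fit (0.40), and against the second WT replicates alone.

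With RSKi47 Batf was below all WT libraries at each of the 4 times. It read 6.07, 6.04, 5.99 and 6.34 without LPS, 6.12, 5.94 and 6.11 at 0.5 h, and 6.44, 6.42, 6.24 and 6.26 at 1 h. At 2 h it read 8.08, 7.83, 8.12 and 7.95, also below all libraries of Map3k8[D270A] and Elk1-/-Elk4-/- cells. The differences from WT were -0.78, -0.81 and -0.84 at the first 3 times (SE 0.11, 0.12 and 0.11) and -1.79 at 2 h (SE 0.12, adjusted p = 7e-25). Against the first and second WT replicates the difference at 1 h was -1.07 and -0.61, called in both. The response at 2 h was 1.89, smaller than in WT by 1.01 (-1.01, SE 0.16, adjusted p = 3.1e-07), and at 0.5 and 1 h the responses differed by -0.04 and -0.06 without a call.

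Atf3 was higher than in WT in 3 of the groups at their last time of LPS. In Map3k8[D270A] cells it stood at 14.25, 14.40 and 14.51 at 1 h, overlapping WT, and at 14.46, 14.60 and 14.63 at 2 h, above all WT libraries. The difference was -0.13 at 1 h (adjusted p = 0.162; -0.18 and called without WT replicate 9) and 0.28 at 2 h (SE 0.063, adjusted p = 0.000484). At 2 h it was 0.30 within the first replicates and 0.24, not called, within the second. The highest of the 4 means was that of 2 h in Map3k8[D270A] cells (14.57) and that of 1 h in WT cells (14.52). The responses at 2 h, 0.72 and 0.52, differed by 0.20 (SE 0.084, adjusted p = 0.103), which was called when replicate number was a block (0.20).

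In Nfkb1[SS/AA] cells Atf3 at 1 h stood at 14.98, 15.06 and 15.21, above every WT library, and at 0.5 h at 14.48, 14.54 and 14.67, again above all of WT. The differences were 0.09 without LPS (not called), 0.29 at 0.5 h (SE 0.062, adjusted p = 8.17e-05) and 0.56 at 1 h (SE 0.062, adjusted p = 7.42e-13). Against the second WT replicates alone they were 0.14, not called, at 0.5 h and 0.65 at 1 h. The response at 1 h was 1.21, larger than in WT by 0.47 (SE 0.087, adjusted p = 4.04e-05), and 0.92 after quantile normalization.

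With PD0325901 Atf3 at 0.5 h stood at 14.28, 14.30 and 14.33, within the range of WT, and at 1 h at 14.84, 14.88 and 14.99, above all WT libraries. The difference from WT was 0.04 at 0.5 h (limma adjusted p = 0.683) and 0.38 at 1 h (SE 0.062, limma adjusted p = 3.83e-07). Against the first and second WT replicates that at 0.5 h was 0.19, called, and -0.11, not called. That at 1 h was 0.29 and 0.47, called in both. The response at 1 h, counted from PD0325901 alone at 70 min, was 0.87 (SE 0.076, adjusted p = 1.73e-18; 0.52 and called after quantile normalization), a difference from WT of 0.13 (SE 0.097, adjusted p = 0.657). Without LPS the libraries read 13.79, 13.80 and 13.81 at 10 min and 14.04, 14.01 and 14.05 at 70 min. Those groups did not overlap, and the difference of 0.23 was not called (SE 0.087, adjusted p = 0.103, 6.09% of genes called).

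RSKi47 went with lower Atf3, the other direction from PD0325901. The libraries read 13.55, 13.53, 13.60 and 13.53 without LPS, 14.18, 14.15 and 14.25 at 0.5 h, and 13.99, 14.25, 14.39 and 13.90 at 1 h. At 2 h they read 13.96, 13.90, 13.99 and 13.30, below all WT libraries, with replicate 4 far below the other three replicates. The differences from WT were -0.22 without LPS (limma adjusted p = 0.0041) and -0.07 at 0.5 h (not called). At 1 h the difference was -0.39 with overlapping libraries (SE 0.069, limma adjusted p = 1.2e-06), and -0.26 and called after quantile normalization. At 2 h it was -0.50 (SE 0.076, limma adjusted p = 1.72e-08), and -0.34 and still called without RSKi47 replicate 4. At 1 h Atf3 was 0.77 lower with RSKi47 than with PD0325901 (-0.77, SE 0.069, adjusted p = 3.36e-17), without overlap. The response at 2 h was smaller than in WT by 0.28 (-0.28, SE 0.10, adjusted p = 0.0392), a call lost without RSKi47 replicate 4 (-0.12, adjusted p = 0.405) and without WT replicate 6 (-0.28), 7 (-0.26) or 8 (-0.25). It was not called against the first (-0.23) or the second WT replicates (-0.34) alone, nor after quantile normalization (-0.19).

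In Elk1-/-Elk4-/- cells Atf3 read 13.58, 13.60, 13.73 and 13.48 without LPS and 14.51, 14.53, 14.50 and 14.36 at 0.5 h. At each time a single Elk1-/-Elk4-/- library lay within the range of WT, and that at 0.5 h lay below all second WT replicates (14.38 to 14.43). The differences were -0.18 (SE 0.063, adjusted p = 0.0137) and 0.22 (SE 0.063, adjusted p = 0.0044). Against the second WT replicates alone they were -0.15 and 0.064 and not called. Without Elk1-/-Elk4-/- replicate 4 the first was -0.14 and not called. The response at 0.5 h was 0.88 against 0.48 in WT, a difference of 0.40 (SE 0.089, adjusted p = 0.0646) that was called when replicate number was a block (0.40; 0.0589% of genes were called without it) and without WT replicate 7 (0.44), 8 (0.46) or 9 (0.41). It was 0.58 and called against the first WT replicates and 0.21 and not called against the second. At 1 and 2 h Atf3 differed from WT by 0.03 and 0.02 without a call.

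Batf3 was below WT in Elk1-/-Elk4-/- cells at every time and without overlap. The libraries read 5.05, 5.22, 5.36 and 5.06 without LPS, 5.30, 5.24, 5.26 and 5.04 at 0.5 h, and 4.82, 5.15, 5.40 and 4.91 at 1 h. At 2 h they rose to 5.72, 5.70, 5.81 and 5.66, which is above all their earlier libraries. The differences from WT were -0.79 (SE 0.12, adjusted p = 1.08e-07), -0.64 (adjusted p = 1.16e-05), -0.85 (adjusted p = 2.08e-08) and -0.37 (SE 0.13, adjusted p = 0.0136), the last being lost without WT replicate 5 (-0.31) and within the second replicates (-0.29). Within Elk1-/-Elk4-/- cells the difference of 2 h from unstimulated was 0.55 (SE 0.13, adjusted p = 0.000136), and 0.43 more than in WT without a call (SE 0.17, adjusted p = 0.0777), although it was called when replicate number was a block (0.47). Against Map3k8[D270A] cells Batf3 was lower by 0.64, 0.67 and 0.66 at the first 3 times (-0.64, -0.67 and -0.66, called each time, where 50.4%, 49.4% and 51.6% of genes were called), and at 2 h it differed by -0.19 with overlapping libraries and no call (adjusted p = 0.169). The neutrophil markers separated the same libraries from all others, S100a9 at between 8.69 and 9.75 in Elk1-/-Elk4-/- libraries for example.

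Batf3 was also lower with RSKi47, where the 15 libraries lay between 5.07 and 5.59. Those without LPS read 5.54, 5.50, 5.31 and 5.53, below WT, and those at 2 h 5.18, 5.29, 5.29 and 5.26, again below WT. The differences were -0.49 (adjusted p = 3.97e-05), -0.43 (adjusted p = 0.00116), -0.70 (adjusted p = 1.83e-08) and -0.83 (SE 0.11, adjusted p = 1.44e-09). Against the second WT replicates alone that at 0.5 h was -0.22 and not called. In Map3k8[D270A] cells Batf3 lay between 5.54 and 6.33, and its differences of -0.15, 0.03, -0.19 and -0.17 were not called. In Nfkb1[SS/AA] cells at 1 h (-0.22, adjusted p = 0.0461) and with PD0325901 at 1 h (-0.30, adjusted p = 0.00766) it was called with overlapping libraries. Against the second WT replicates alone they were -0.069 and -0.15 and not called, and the first of these calls was lost when any of WT replicates 4, 5, 6 and 9 or Nfkb1[SS/AA] replicates 1, 3, 5 and 6 was left out, with values between -0.17 and -0.23.

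Over all 25 groups, Jdp2 formed separate steps. WT at 2 h had the highest mean (12.97), followed by Elk1-/-Elk4-/- (12.32) and Map3k8[D270A] cells at 2 h (12.26), which did not differ beyond their spread, and by RSKi47 at 2 h (12.01). WT (11.07) and Elk1-/-Elk4-/- cells (10.97) at 1 h were neighbours within their spread, as were PD0325901 (10.60) and Nfkb1[SS/AA] cells (10.59) at 1 h, above Map3k8[D270A] cells (10.38) and RSKi47 (10.04) at 1 h. All groups without LPS or at 0.5 h lay between 8.16 and 8.50. For Batf the 4 groups at 2 h came first, each apart from the next by more than the larger SD: WT (9.79), Elk1-/-Elk4-/- (9.47), Map3k8[D270A] (8.88) and RSKi47 (7.83 to 8.12 in its libraries). The next group was Elk1-/-Elk4-/- cells at 1 h (7.19), and the lowest was RSKi47 at 0.5 h (6.06). Atf3 was highest in Nfkb1[SS/AA] cells (15.08) and with PD0325901 (14.90) at 1 h, each above the next by more than the SD, and lowest with RSKi47 (13.55) and in Elk1-/-Elk4-/- cells (13.60) without LPS. Batf3 ran from 6.09 in WT at 2 h down to 5.07 in Elk1-/-Elk4-/- cells at 1 h, with most neighbours within their spread and the lowest 7 places held by RSKi47-treated and Elk1-/-Elk4-/- cells.

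Across these 25 group means, which share WT cultures and times, the patterns most like each gene were found by Pearson correlation among 11970 other genes. For Jdp2 they were Stk40 (0.995), Nfkb2 (0.992) and Cd40 (0.990), for Batf E2f5 (0.981), Psma6 (0.980) and Kcnh4 (0.973), for Atf3 Rraga (0.902), H3f3b (0.875) and Id2 (0.874), and for Batf3 Htra2 (0.920), Ppp1r14b (0.916) and Lsm4 (0.915). By rank correlation Rraga stayed first for Atf3 (0.887), whereas the first place went to Ube2n (0.962) for Batf, Ednrb (0.941) for Jdp2 and Gpr137 (0.922) for Batf3, and none of Stk40, Nfkb2 and Cd40 was among the first 5 for Jdp2. Between the 4 genes the Pearson correlation was 0.86 for Batf and Jdp2 and 0.46 or less for every other pair. By rank it was 0.79 for Batf and Jdp2, 0.51 for Atf3 and Jdp2, and lower for the other pairs.

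Of the 7 FOS and JUN genes 0, 4, 5 and 4 were lower than in WT in Map3k8[D270A] cells at the 4 times and 1 was higher at 2 h, with medians of 0.05, -0.60, -0.65 and -0.49, beside 0.833%, 0.892%, 4.64% and 13.1% of all genes lower. Elk1-/-Elk4-/- cells had 2, 5, 5 and 4 of the 7 lower, beside 24.6%, 22.0%, 26.2% and 23.1% of all genes. In the same cells 1 was higher at each time but 1 h (Fos by 0.36 without LPS, Fosl2 by 0.39 at 0.5 h and Jun by 0.54 at 2 h), beside 27.2%, 22.4% and 27.7% of all genes higher. Fosl2 was lower at 2 h by 1.49 in Map3k8[D270A] cells (-1.49), 1.44 in Elk1-/-Elk4-/- cells (-1.44) and 1.84 with RSKi47 (-1.84). Nfkb1[SS/AA] cells had 1, 3 and 5 of the 7 lower at their 3 times, beside 15.1%, 15.6% and 21.9% of all genes. With PD0325901 6 and 7 of 7 were lower at 0.5 and 1 h, beside 15.0% and 19.3%. With RSKi47 1, 3, 3 and 5 were lower at the 4 times, beside 26.3%, 24.5%, 26.3% and 24.6%, and 1 was higher without LPS and 2 at 1 h, beside 26.8% and 26.5%.

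Batf2 differed from its relatives Batf and Batf3 in Elk1-/-Elk4-/- cells, where it was higher than in WT by 0.54 at 1 h and 0.80 at 2 h. With RSKi47 it was lower at 2 h (-0.62). The BATF partner Irf4 was lower at 2 h in Map3k8[D270A] cells (-0.27), in Elk1-/-Elk4-/- cells (-0.65) and with RSKi47 (-0.40), and at 1 h in Nfkb1[SS/AA] cells (-0.63). Irf8 differed from WT at 2 h by -0.04, 0.15 and 0.00 in the first 3 of these, without a call.

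The 8 reported ATF3 targets moved in both directions. Atf3 was called higher than in WT in 5 comparisons. At 0.5 h 3 of the targets were higher and 1 lower in Nfkb1[SS/AA] cells (median 0.42, beside 16.7% of all genes higher and 15.6% lower), and again 3 higher and 1 lower in Elk1-/-Elk4-/- cells (median 0.25, beside 22.4% and 22.0%). At 1 h 2 were higher and 3 lower in Nfkb1[SS/AA] cells (median -0.17, beside 20.5% and 21.9%), and 3 higher and 2 lower with PD0325901 (median 0.04, beside 16.4% and 19.3%). At 2 h 1 was higher and 4 lower in Map3k8[D270A] cells (median -0.38, beside 14.6% and 13.1%). Where Atf3 was called lower without LPS, 1 target was higher in Elk1-/-Elk4-/- cells (median 0.22, beside 27.2% and 24.6%), and limma called none with RSKi47 (median 0.15, beside 26.8% and 26.3%), where Ch25h and Ccl4 had an unadjusted p of 0.0441 and 0.0437. Where Atf3 was lower with RSKi47 and LPS, 1 target was higher and 5 lower at 1 h and 5 were higher and 1 lower at 2 h, with medians of -0.46 and 0.64, beside 26.5% and 27.5% of all genes higher and 26.3% and 24.6% lower. Ifnb1, the interferon-β gene, was the highest of the 8 in Nfkb1[SS/AA] cells at 0.5 and 1 h (1.45 and 3.26), with PD0325901 at 1 h (3.62), in Map3k8[D270A] cells at 2 h (1.00) and with RSKi47 at 1 and 2 h (1.33 and 2.37), and Cxcl1 was the highest in Elk1-/-Elk4-/- cells at 0.5 h (0.99).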

How the data were processed

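RNA-seq libraries of BMDMs were analysed from the single table of values that the authors deposited. According to the submitters' processing notes the authors used STAR 2.5.1b, RSEM 1.2.29 and DESeq2 1.10.1 with mm10. The deposited values are normalized, on a log2 scale from -2.40 to 19.81, and the sources used here do not give their transformation. A value above 25 was set to missing (1, outside the 4 genes). Counts had been foreseen, so limma replaced a count test, and no pseudocount was needed. The methods give a typical read yield, but the depth of each library is unknown.

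A model with 1 mean per group was fitted by limma 3.58.1 (R 4.3.3) to the 62 libraries of WT, Map3k8[D270A] and Elk1-/-Elk4-/- cells, for genes that reached 10 on the linear scale in 4 libraries, or to all libraries, for genes that did so in 3, and gave 61 comparisons. The members and lists were chosen with earlier results of these data known. All 4 members are named; of the listed genes those at the ends of a list, the FOS, JUN and IRF genes, and the 3 genes most like each member are named, and Batf2, S100a9, Ube2n, Ednrb and Gpr137 were named after their values were seen. The fits were tested on simulated data. Replicates of the same number deviated together in every pair of times in WT cells (30 of 30 correlations above 0.1) and Nfkb1[SS/AA] cells (18 of 18), and in most pairs in Map3k8[D270A] (34 of 36), RSKi47-treated (20 of 21) and Elk1-/-Elk4-/- cells (20 of 24), but in 14 of 33 with PD0325901. The replicate block covered replicate numbers within all of these. The smallest root mean square difference between 2 libraries was 0.109, so none was deposited more than once. Alternatives were single replicates left out, each group of replicates, all libraries, only the groups compared, quantile normalization, a mean-variance trend, no filter and the replicate block.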

Additional observations from a re-analysis of the deposited data

Results flagged for a closer look

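The LPS response of 3 of the 4 genes differed from that of WT cells in at least 1 mutant or inhibitor group by a test of the difference itself. In Map3k8[D270A] cells these were Jdp2 at 1 h (-0.57; -0.29 and not called within the second replicates) and 2 h (-0.59) and Batf at 2 h (-0.79). In Elk1-/-Elk4-/- cells it was Jdp2 at 2 h (-0.50), and in Nfkb1[SS/AA] cells Jdp2 (-0.42; -0.16 and not called against the second WT replicates) and Atf3 (0.47) at 1 h. With RSKi47 they were Jdp2 at 1 h (-0.81) and 2 h (-0.74), and Batf (-1.01) and Atf3 (-0.28) at 2 h, of which the last ran from -0.34 to -0.12 with single replicates left out and lost its call in 4 of these 10 fits. In the RSKi47 responses LPS and the longer time in the inhibitor cannot be told apart. In all, 10 of 52 such differences were called, 6 of them at 2 h, where 15.5%, 16.9% and 21.0% of all genes were called in Map3k8[D270A], Elk1-/-Elk4-/- and RSKi47-treated cells. Over all 13 comparisons that share ran from 0.0251% (3 genes, and 0 to 48 under the alternatives) to 21.0%.

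Within groups of 4 to 6 libraries, 2 of 80 sets of values held a library far from the rest, where chance gives about 1 in 20. Atf3 with RSKi47 at 2 h was 13.30 in replicate 4 and 13.90 in the next, a gap of 0.875 of the range of the group. Batf3 with RSKi47 without LPS was 5.31 in replicate 3 and 5.50 in the next, a gap of 0.857 of the range.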

How the results depend on the processing

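Of 2440 values of 136 results under the alternatives, 2352 stayed on their side of the threshold (values not called could change sign), 46 lost a call and 42 gained one, and none changed sign while called. Of the 136 results 95 stayed on their side throughout, among them 41 of the 58 called. The depth of each library is unknown, so no limit from counts can be given, and the cause of the changes below was not tested.

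With the first replicates of WT and Map3k8[D270A] cells alone, these differences from WT gained a call: Jdp2 in Elk1-/-Elk4-/- cells at 1 h (-0.33), Batf in Elk1-/-Elk4-/- cells at 0 and 0.5 h (-0.26 and -0.31) and with PD0325901 at 1 h (-0.43), Atf3 in Map3k8[D270A] cells at 1 h (-0.18) and with PD0325901 at 0.5 h (0.19), and Batf3 in Nfkb1[SS/AA] cells at 0 and 0.5 h (-0.31 and -0.28), in Map3k8[D270A] cells at 1 h (-0.34) and with PD0325901 at 0.5 h (-0.33). So did the differences of responses of Atf3 in Map3k8[D270A] cells at 1 h (-0.29), in Elk1-/-Elk4-/- cells at 0.5 and 2 h (0.58 and 0.24) and in Nfkb1[SS/AA] cells at 0.5 h (0.39), of Batf3 in Elk1-/-Elk4-/- cells at 2 h (0.50) and of Jdp2 with PD0325901 at 1 h (-0.47), while that of Atf3 with RSKi47 at 2 h (-0.23) lost it.

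With the second replicates alone, calls were lost for Batf in WT at 1 h (0.14), Atf3 in WT from 1 to 2 h (-0.10), the differences from WT of Atf3 in Map3k8[D270A] cells at 2 h (0.24), in Elk1-/-Elk4-/- cells at 0 and 0.5 h (-0.15 and 0.064) and in Nfkb1[SS/AA] cells at 0.5 h (0.14), of Batf in Elk1-/-Elk4-/- cells at 2 h (-0.18) and in Nfkb1[SS/AA] cells at 1 h (-0.24), and of Batf3 in Elk1-/-Elk4-/- cells at 2 h (-0.29), in Nfkb1[SS/AA] cells at 1 h (-0.069), with PD0325901 at 1 h (-0.15) and with RSKi47 at 0.5 h (-0.22). The differences of responses of Jdp2 in Map3k8[D270A] (-0.29) and Nfkb1[SS/AA] cells (-0.16) at 1 h and of Atf3 with RSKi47 at 2 h (-0.34) were lost too. Calls were gained for Jdp2 in Elk1-/-Elk4-/- cells at 0 and 0.5 h (-0.19 and -0.19), for Jdp2 and Atf3 with RSKi47 at 0.5 h (-0.22 and -0.22), and for the response of Batf with PD0325901 at 1 h (0.56).

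Quantile normalization ended the calls of Atf3 in WT at 2 h (0.087), Batf3 in Nfkb1[SS/AA] cells at 1 h (-0.17) and the response of Atf3 with RSKi47 at 2 h (-0.19). It gave calls to Batf3 in WT at 2 h (0.26) and to the responses of Atf3 in Map3k8[D270A] cells at 2 h (0.26) and Elk1-/-Elk4-/- cells at 0.5 h (0.40) and of Batf3 with RSKi47 at 2 h (-0.42). It moved the share of higher genes among those called in WT cells from 67.2%, 50.9% and 48.5% to 40.6%, 34.2% and 37.0% at the 3 times, and turned Atf3 with RSKi47 at 2 h against no LPS from 0.24 to -0.11. Without the filter the Batf3 difference in Nfkb1[SS/AA] cells at 1 h (-0.22) and the response of Atf3 with RSKi47 at 2 h (-0.28) lost their calls. With only the compared groups in the fit both were lost again (-0.22 and -0.28), as was Atf3 with RSKi47 without LPS (-0.22), and Batf with PD0325901 at 1 h gained one as a difference (-0.21) and as a response (0.40). With the libraries of all experiments in the fit the response of Batf3 in Elk1-/-Elk4-/- cells at 2 h was called (0.43). Without RSKi47 replicate 4 and Nfkb1[SS/AA] replicate 2 at 1 h, which stand apart, the response of Atf3 with RSKi47 at 2 h was -0.12. With the replicate block, the responses of Batf with PD0325901 at 1 h (0.39), of Atf3 in Map3k8[D270A] cells at 2 h (0.20) and in Elk1-/-Elk4-/- cells at 0.5 h (0.40), and of Batf3 in Elk1-/-Elk4-/- cells at 2 h (0.47) were called, and no other call changed.

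Leaving out single replicates changed a call in these ranges: Batf in WT at 1 h 0.23 to 0.34, Atf3 in Map3k8[D270A] cells at 1 h -0.18 to -0.097, Atf3 in Elk1-/-Elk4-/- cells at 0 h -0.22 to -0.14, Batf in Elk1-/-Elk4-/- cells at 0.5 h -0.31 (without its replicate 2) to -0.16 and at 2 h -0.36 to -0.27, Batf3 in Elk1-/-Elk4-/- cells at 2 h -0.39 to -0.31, Batf3 in Nfkb1[SS/AA] cells at 0 h -0.28 to -0.14 and at 1 h -0.28 to -0.17, and Batf with PD0325901 at 1 h -0.28 to -0.15. For differences of responses the ranges were 0.35 to 0.46 (Atf3) at 0.5 h and 0.38 to 0.47 (Batf3) at 2 h in Elk1-/-Elk4-/- cells and -0.34 to -0.12 (Atf3) with RSKi47 at 2 h.

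Counts of called genes moved by more than 1.5 times in WT at 0.5 h (1382; 782 to 2471 over the alternatives), in Map3k8[D270A] against WT cells (171, 163, 1163 and 3292 at the 4 times; 57 to 390, 111 to 247, 486 to 1589 and 1208 to 4431), in Elk1-/-Elk4-/- against WT cells at 2 h (6041; 3739 to 7066) and with PD0325901 (3524 and 4268; 1914 to 4283 and 2689 to 5014). For responses they were 240 (123 to 470) and 1847 (693 to 3050) in Map3k8[D270A] cells at 1 and 2 h, 2012 (1243 to 3314) in Elk1-/-Elk4-/- cells at 2 h, 727 (375 to 1357) in Nfkb1[SS/AA] cells at 1 h, 429 (236 to 1135) with PD0325901 at 1 h, 663 (228 to 1279) and 2515 (895 to 3632) with RSKi47 at 1 and 2 h, 160 (100 to 559) in Elk1-/-Elk4-/- cells at 1 h, and at 0.5 h 13 (8 to 77), 7 (6 to 139), 37 (15 to 108), 178 (86 to 844) and 3 (0 to 48) in Map3k8[D270A], Elk1-/-Elk4-/-, Nfkb1[SS/AA], PD0325901- and RSKi47-treated cells. The same held for 2827 for DMSO against WT (1711 to 3643), 729 for PD0325901 at 70 against 10 min (253 to 1482), and at 0.5 h against no LPS 604 in Map3k8[D270A] (418 to 1001), 590 in Elk1-/-Elk4-/- (428 to 1054) and 1751 in Nfkb1[SS/AA] cells (1333 to 2828), 1789 with PD0325901 (793 to 2714) and 610 with RSKi47 (305 to 878).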
